A study of Homo sapiens with 2 samples.

Results

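The genes described here are 9 genes of the tight junction: the claudins CLDN1, CLDN3, CLDN4, CLDN7 and CLDN12, the MARVEL-family membrane proteins OCLN and MARVELD2, and the scaffolds TJP1 and TJP3. They were taken by symbol from the deposited gene table, and all 9 were found among 46732 listed genes. RNA came from secondary mammospheres of T47D, an established luminal, estrogen receptor-positive line of human breast cancer. Cells grown in suspension form mammospheres, small floating balls. Control cells and CIC knockdown cells each grew for 7 days as primary spheres and, after passage, for 7 days as secondary spheres. CIC (capicua) is a DNA-binding repressor of transcription that ERK signalling inactivates. The means of knockdown and whether a clone or a pool of cells was used are not given in the sources used here.

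There was 1 library per group, so the spread between cultures is unknown and no test was made. The design text speaks of duplicates, and whether a deposited column pools them is not stated. The control library held 47099221 estimated counts and the other library 68420805, or 1.45 times as many. CIC mRNA itself had 607 and 872 counts, a ratio of 0.98 (95% counting interval 0.882 to 1.09), and 1.65 TPM in each library. Since CIC mRNA was not lower where the label names a knockdown, the libraries are called by their labels throughout. The 8 luminal epithelial markers looked for, EPCAM, CDH1, KRT8, KRT18, KRT19, ESR1, GATA3 and FOXA1, were at 41.7 TPM or more in both libraries. Of 4 leukocyte markers, 4 were at 0 counts in control and 3 were at 0 in the other library. The 5 endothelial markers summed to 0.074 and 0.124 TPM, and CLDN5, the claudin of endothelium, was at 0 counts in both. The 5 fibroblast markers summed to 4.71 and 2.91 TPM, of which LUM made 4.44 and 2.44. COL1A1 was at 0.211 and 0.427, and 2 of the 5 were at 0. The 4 basal or myoepithelial markers summed to 0.943 and 0.764 TPM, of which ACTA2 made 0.787 and 0.741. KRT5 and KRT14 were at 0 in both libraries. TP63 was lower in the library labelled CIC knockdown, with 38 and 8 counts (ratio 0.144, 0.0579 to 0.312). In bulk RNA, fewer cells of a kind and less RNA per cell cannot be told apart.

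Tight junctions are belts at the top of the lateral membrane where neighbouring epithelial cells seal the space between them. Claudins polymerise into the strands of the belt, and the mix of claudins sets which ions can pass; some claudins seal and others form pores. Occludin sits in the strands, tricellulin, encoded by MARVELD2, gathers at the corners where several cells meet, and the zonula occludens proteins encoded by the TJP genes hold the strands to actin through PDZ domains. Low expression of several claudins marks the claudin-low group of breast cancers, which luminal lines such as T47D do not belong to.

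The order of the members by level was the same in both libraries, and most ratios were close to 1. Ranked by TPM, the authors' length-scaled unit, the order was CLDN4, CLDN7, CLDN3, TJP3, OCLN, MARVELD2, TJP1, CLDN12 and CLDN1 in control and also in the library labelled CIC knockdown. A single gene, CLDN1, had a ratio of at least 1.5-fold, and it was the least abundant of the 9. In all, 1 member was at least 1.5-fold higher and 0 were lower, where 5.57% of the 15303 genes with at least 50 counts in 1 library were at least 1.5-fold higher and 4.75% lower. By counting intervals alone, 3 members (CLDN4, CLDN1 and TJP1) lay above a ratio of 1, 2 (CLDN7 and OCLN) lay below and 4 held 1. Over all 15303 genes the intervals lay above 1 for 32.0% and below for 26.6%, and 10.3% were past 1.5-fold and 58.6% off 1 in either direction. Of the 8 members with at least 1000 counts in 1 library, 0 were past 1.5-fold, where 1.96% of the 8625 such genes were higher and 1.74% lower, 3.7% in all. Their intervals lay above 1 for 2 and below for 2, where the shares of such genes were 38.6% and 29.5%, 68.1% in all. The median log2 ratio of the members was 0.05, beside 0.02 for all those genes. For 6 of those 8 the absolute log2 ratio was under 0.13, the median of genes with that many counts.

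**Figure D1:**
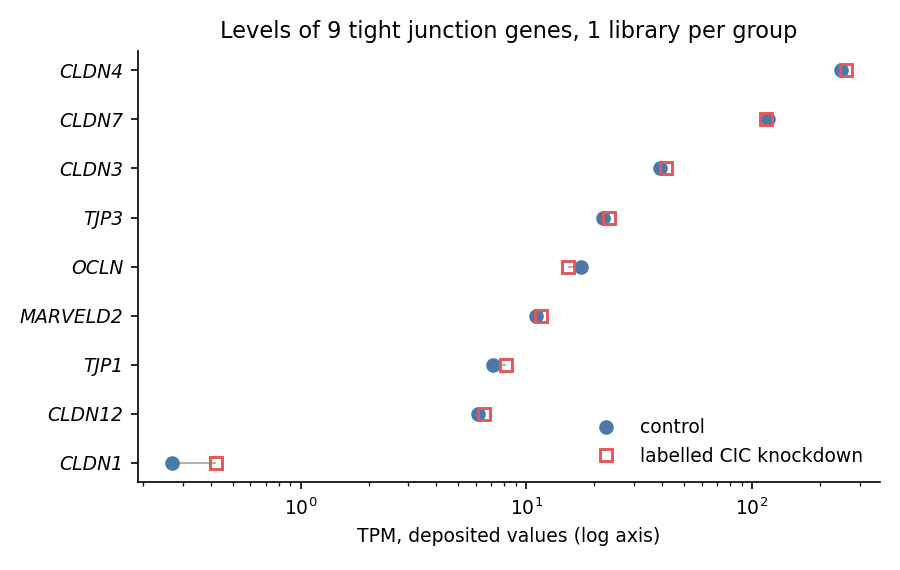
Deposited TPM of the 9 members in the control library (filled circles) and the library labelled CIC knockdown (open squares), on a log axis, 1 library per group. The 2 symbols of a gene lie close together for every gene but CLDN1, while the genes span from 0.269 TPM for CLDN1 to 248 TPM for CLDN4 in control.

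CLDN4, which encodes a sealing claudin common in glandular epithelia, was the most abundant member. It had 21045 counts in control and 31632 in the library labelled CIC knockdown, or 248 and 261 TPM, above 98.6% of the protein-coding genes with at least 50 counts in both. On normalised counts this gave 1.03 (1.01 to 1.04), with a log2 ratio of 0.04. The interval is narrow because the counts are high, and the median gene had a log2 ratio of 0.02. CLDN4 is a gene of 1 listed transcript on GRCh38 chromosome 7, 73830863 to 73832693. CLDN3, another sealing claudin, lies on the same chromosome at 73768997 to 73770270, 60592 bases away. It had 2300 and 3507 counts, or 39.0 and 41.5 TPM, a ratio of 1.04 (0.986 to 1.10).

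CLDN7 (chromosome 17, 7259903 to 7263193), found along the lateral membrane as well as in the junction, had 8436 and 11815 counts, or 118 and 115 TPM. Its ratio was 0.955 (0.929 to 0.982), an interval below 1. It shares 38 bases with ELP5, and whether the counting used strand is not stated, so reads of overlapping genes may be mixed; CLDN12 and CLDN1 overlap uncharacterised genes that were at 0 counts in both libraries. CLDN12 (chromosome 7, 90403461 to 90415954), a claudin that lacks the usual PDZ-binding end, had 989 and 1502 counts, or 6.10 and 6.48 TPM, a ratio of 1.04 (0.955 to 1.12).

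CLDN1 (chromosome 3, 190305707 to 190322446) encodes a sealing claudin needed for the barrier of the skin. It had 43 counts in control and 96 in the library labelled CIC knockdown, or 0.269 and 0.420 TPM, above 3.40% and 5.02% of the protein-coding genes. This is a 1.52-fold higher level (1.05 to 2.24), with a log2 ratio of 0.59. Whether a read pair was counted once or per mate is not stated, and the interval from halved counts was 0.916 to 2.74, which holds 1. The log2 ratio lay just past the 1.5-fold limit and was under it with a prior count of 5. The ratio of the deposited TPM values was 1.56 and that of FPKM 1.54, while adding a pseudocount of 0.1 to both values, large beside these levels, gave log2 ratios of 0.49 in TPM and 0.47 in FPKM, under the limit. CLDN4 exceeded CLDN1 by 923 times in TPM in control and by 621 times in the other library.

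CLDN4 and CLDN7 dominated the claudin mix in both libraries. Summed over all 24 listed claudin genes, the level was 423 TPM in control and 435 TPM in the library labelled CIC knockdown. CLDN4 made 58.7% and 59.9% of that sum, CLDN7 27.9% and 26.5%, CLDN3 9.23% and 9.55%, CLDN12 1.44% and 1.49%, and CLDN1 0.0636% and 0.0965%. Together the 5 members made 97.4% and 97.5%. Of the other 19 claudin genes, 8 were at 0 counts in both libraries, among them CLDN2, the cation pore, and a further 8 had 17 counts or fewer. The 3 others with at least 50 counts in 1 library were CLDN23 with 473 and 696 counts (ratio 1.00, 0.892 to 1.13), CLDN9 with 275 and 368 (0.913, 0.779 to 1.07) and CLDN15 with 189 and 211 (0.761, 0.623 to 0.932). With halved counts the interval of CLDN15 was 0.571 to 1.02, which holds 1.

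**Figure D2:**
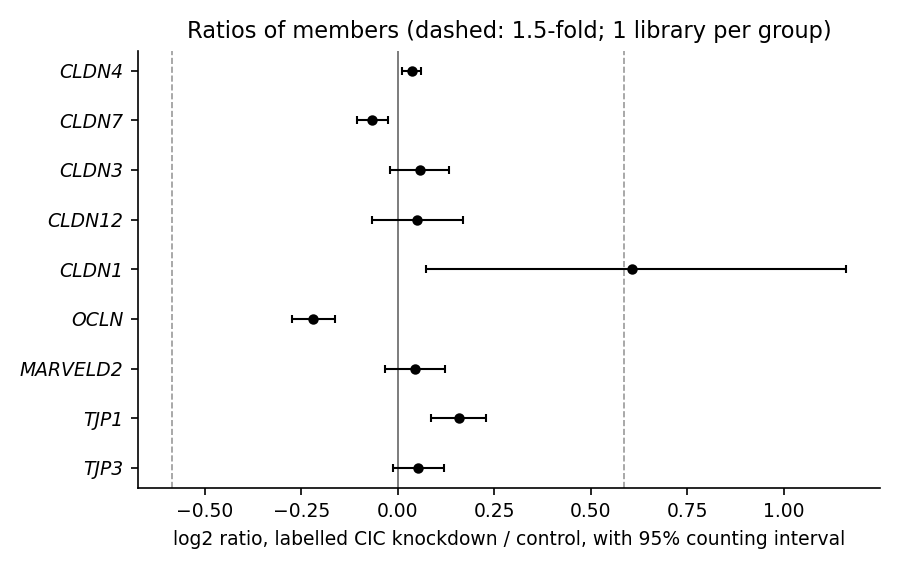
Log2 ratio of each member, library labelled CIC knockdown over control, from normalised counts without a prior count; bars are exact 95% counting intervals and dashed lines mark 1.5-fold. CLDN1 alone reaches a dashed line, with the widest bar (1.05 to 2.24 as a ratio), and OCLN lies farthest below 0.

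OCLN (chromosome 5, 69492547 to 69558104) encodes occludin, which is built into the strands and regulates their turnover. It had 4823 counts in control and 6077 in the library labelled CIC knockdown, or 17.4 and 15.3 TPM. Its ratio of 0.859 (0.827 to 0.893), on the log2 scale -0.22, was the lowest of the 9. Reads of OCLN can be shared with its pseudogene OCLNP1, which had 283 and 390 counts; the 2 genes summed gave a ratio of 0.864 (0.833 to 0.896). MARVELD2 is the neighbour of OCLN on chromosome 5, at 69415116 to 69444330, with 48216 bases between them. It had 2242 and 3389 counts, or 11 and 11.6 TPM, and a ratio of 1.03 (0.977 to 1.09). The counting intervals of these neighbours did not meet. MARVELD3, the remaining tight junction protein of this family, was higher, with 1681 and 2811 counts (ratio 1.14, 1.07 to 1.21). OCLN made 40.7% of the summed TPM of the family in control and 35.0% in the other library, and MARVELD3 33.5% and 38.4%.

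Among the scaffolds, TJP3 (chromosome 19, 3708384 to 3750813), an epithelial member of the zonula occludens family, had 3107 and 4725 counts, or 21.8 and 23.2 TPM. The ratio was 1.04 (0.991 to 1.09). TJP1 (chromosome 15, 29699367 to 29969049), which encodes ZO-1, the scaffold that places strand assembly, had 2579 and 4219 counts, or 7.12 and 8.16 TPM, and a ratio of 1.12 (1.06 to 1.17). The pseudogene HMGN2P5 lies within TJP1 and had 483 and 797 counts, and TJP3 shares 42 bases with APBA3, which had 303 and 488. In TPM, TJP3 stood 3.07 times above TJP1 in control and 2.84 times in the other library.

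For 4 members with several start sites the shares of the starts differed between the libraries by the listed transcript models. For TJP1 the direction at the main start changed with the models used, as given below. In TJP3 the upstream start, at 3708384, had 2150 counts in control and 2793 in the library labelled CIC knockdown, a ratio of 0.886 (0.837 to 0.938). The downstream start, at 3721737, went the other way, with 957 and 1932 counts (ratio 1.38, 1.27 to 1.49). The downstream start thus took 30.8% of TJP3 TPM in control and 40.9% in the other library. With assembled transcripts added, the ratios were 0.931 (0.879 to 0.986) upstream and 1.36 (1.26 to 1.47) downstream. Starts were taken as given by the transcript models, and counts were divided among models by the authors' software, an error that the intervals leave out.

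CLDN7 used mainly the start at 7262478, with 8190 and 11050 counts, a ratio of 0.920 (0.894 to 0.947). Its 2 upstream starts were scarce and higher in the library labelled CIC knockdown, with 152 and 391 counts at 7263193 (ratio 1.75, 1.45 to 2.13) and 94 and 374 counts at 7262945 (ratio 2.71, 2.16 to 3.44). As shares of CLDN7 TPM they went from 1.92% to 3.55% and from 0.893% to 2.54%, while the main start went from 97.2% to 93.9%. In OCLN the lowest ratio belonged to the first start, at 69492547, with 1977 and 2039 counts (ratio 0.703, 0.661 to 0.749), while the starts at 69492763 and 69492790 had 2846 and 3981 counts (0.954, 0.909 to 1.00). A further OCLN start, at 69504177, had 0 and 57 counts.

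The TJP1 start at 29822468 held 88.3% of TJP1 TPM in control and 81.0% in the other library, in 5 transcripts of 7675 to 7975 bases with 421 to 497 counts each in control. With an assembled TJP1 transcript added to the models, the same start held 94.3% and 96.1%, the opposite direction. The last start, at 29820674, held 10.8% and 16.4%, but 0.138% and 0.310% in that larger set of models. CLDN12 has 3 listed transcripts with the same start and end and lengths of 3490 to 3533 bases. Its transcript variant 3 went from 50.8% to 90.3% of TPM, variant 2 from 33.4% to 9.53% and variant 1 from 15.8% to 0.145%. The gene total was at a ratio of 1.04. Models so alike leave the division of counts among them uncertain, and a change of transcript use was not tested. In MARVELD2 variant X1 led in both libraries, with 78.1% and 81.2% of TPM.

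**Figure D3:**
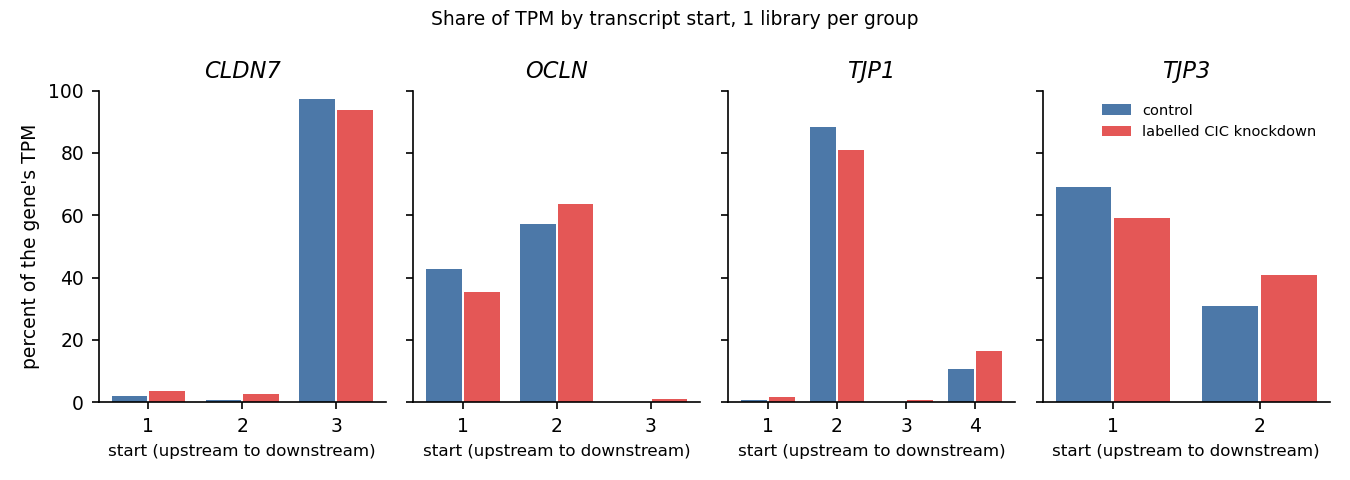
Percent of each gene's TPM by transcript start in the control library (blue) and the library labelled CIC knockdown (red), for the 4 members with several starts; starts with 0 TPM in both libraries are left out and the rest are numbered from upstream to downstream. In TJP3 the second start goes from 30.8% to 40.9%, and in CLDN7 the third start keeps over 93% in both.

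Promoter windows of the members were read from RefSeq (GRCh38.p14), from 250 bases before to 50 after each RefSeq start in the table; it held 15 windows covering all 9 genes. Not every start in the deposited models has a window, the CLDN7 start at 7262945 and the OCLN start at 69504177 among those without one, and the CLDN4 window is set on a RefSeq start 133 bases from the deposited one. They were searched on both strands for the octamers TGAATGAA and TGAATGGA, which CIC binds, and for the E-boxes CAGGTG and CACCTG, which Snail and ZEB repressors bind. The windows shown are that of CLDN1, the member with the highest ratio, and that of the main CLDN7 start, which held the most E-boxes. Both of TJP3, whose starts differed, are shown too. Starts of OCLN and CLDN7 also differed, but the OCLN windows and the other CLDN7 window are not shown. Those shown include both member windows that held an octamer. Capitals mark the matches.
CLDN1, chr3:190322397-190322696, minus strand: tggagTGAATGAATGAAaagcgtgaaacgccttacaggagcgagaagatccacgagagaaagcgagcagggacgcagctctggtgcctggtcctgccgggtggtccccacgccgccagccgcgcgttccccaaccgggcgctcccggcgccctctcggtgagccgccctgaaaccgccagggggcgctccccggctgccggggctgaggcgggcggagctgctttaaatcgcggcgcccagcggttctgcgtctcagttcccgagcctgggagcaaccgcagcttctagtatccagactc
TJP3 upstream start, chr19:3708134-3708433, plus strand: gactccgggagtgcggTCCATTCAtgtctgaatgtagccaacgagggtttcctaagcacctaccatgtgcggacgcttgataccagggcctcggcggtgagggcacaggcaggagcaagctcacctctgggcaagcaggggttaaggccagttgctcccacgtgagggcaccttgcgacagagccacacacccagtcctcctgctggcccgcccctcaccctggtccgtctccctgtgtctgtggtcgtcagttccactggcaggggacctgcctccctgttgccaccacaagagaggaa
TJP3 downstream start, chr19:3721487-3721786, plus strand: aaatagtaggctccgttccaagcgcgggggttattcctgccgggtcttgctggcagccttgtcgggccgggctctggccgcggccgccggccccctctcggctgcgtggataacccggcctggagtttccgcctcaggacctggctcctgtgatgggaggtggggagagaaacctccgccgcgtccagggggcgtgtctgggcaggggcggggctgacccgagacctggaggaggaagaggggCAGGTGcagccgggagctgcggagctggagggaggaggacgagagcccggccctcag
CLDN7 main start, chr17:7262429-7262728, minus strand: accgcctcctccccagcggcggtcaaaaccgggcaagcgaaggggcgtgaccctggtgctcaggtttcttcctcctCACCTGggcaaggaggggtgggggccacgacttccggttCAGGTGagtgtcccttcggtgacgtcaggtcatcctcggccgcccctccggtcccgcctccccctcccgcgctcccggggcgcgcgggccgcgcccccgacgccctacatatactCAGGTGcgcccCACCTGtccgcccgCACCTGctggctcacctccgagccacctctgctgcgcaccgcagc

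The CLDN1 window held 2 copies of TGAATGAA on the gene's strand that overlap, at positions -245 and -241 from the start. The upstream TJP3 window held TGAATGGA on the opposite strand, at position -234. None of the other 13 windows held either octamer, and 2.63% of all 35116 RefSeq promoter windows of this length did. E-boxes were found in 6 windows of 5 members, against 20.6% of all windows. There were 5 matches in the main CLDN7 window and 1 in the downstream TJP3 window. The TJP1 window among the 6 was at 29969049, a start with 0 counts in both libraries. The 2 OCLN windows overlap, but no match lies in the bases they share. A match of letters is a description and does not show binding, and no binding was measured here.

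The other genes of the junction were read from a list of 60 symbols, of which 59 matched a gene of their own (PALS1 is listed as MPP5), and 39 had at least 50 counts in 1 library. Of these 39, 1 was at least 1.5-fold higher (BVES) and 1 lower (IGSF5), beside the 5.57% and 4.75% of all genes. By counting interval 13 lay above 1, 10 below and 16 held 1, where 32.0% of all genes lay above and 26.6% below; these shares are near those of all genes. With halved counts 11 lay above and 7 below. The median log2 ratio was 0.04. BVES, an adhesion protein, had 27 and 61 counts (ratio 1.54, 0.965 to 2.52), so its interval held 1. IGSF5, a junctional adhesion molecule, had 198 and 191 counts (0.658, 0.536 to 0.807). The ratio of deposited TPM was 1.60 for BVES, past the limit, and 0.676 for IGSF5, short of it.

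The other genes with the largest ratios were RAB13, MAGI3, CGNL1 and CLDN15, the last given above. RAB13, a GTPase that carries junction proteins to the membrane, had 870 and 1879 counts (ratio 1.47, 1.36 to 1.60), and the scaffold gene MAGI3 1789 and 3633 (1.39, 1.31 to 1.47). CGNL1, which encodes paracingulin, had 506 and 556 counts (0.749, 0.663 to 0.847). Of the 13 plaque scaffolds, 5 lay above 1, 4 below and 4 held 1; of the 9 polarity genes, 3 lay above, 3 below and 3 held 1. Of the 6 signalling and RNA factors, 4 lay above 1 and 0 below, or 3 and 0 with halved counts. Among all genes 32.0% lay above and 26.6% below.

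The most abundant genes of the list stayed near an equal level. The polarity gene PARD6B had 132 and 129 TPM (ratio 0.954, 0.939 to 0.969) and the actin-binding CTTN 94.5 and 106 TPM (1.09, 1.06 to 1.12). F11R, which encodes the adhesion molecule JAM-A, had 77.1 and 78.4 TPM (0.992, 0.973 to 1.01). The polarity kinase PRKCI had 33.9 and 38.5 TPM (1.09, 1.06 to 1.13) and the plaque scaffold gene CGN 24.1 and 25.8 TPM (1.02, 0.988 to 1.06). PARD3, the partner of PRKCI, had 24.8 and 23.9 TPM (0.936, 0.906 to 0.966). With 2 libraries a gene's pattern is 1 ratio. By the smallest difference in log2 ratio, CGN, MPDZ and ARHGEF2 (0.03, 0.04 and 0.03) were nearest to CLDN4, and BVES, RAB13 and MAGI3 (0.59, 0.56 and 0.47) to CLDN1.

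**Figure D4:**
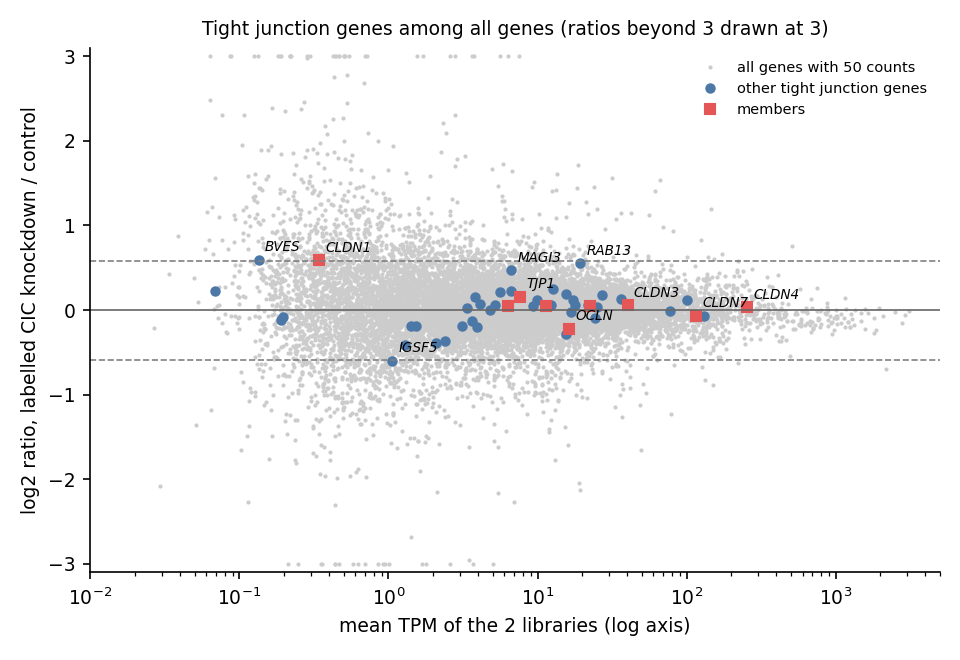
Log2 ratio, library labelled CIC knockdown over control, against mean TPM (log axis) for all genes with at least 50 counts in 1 library (grey), the other tight junction genes (blue) and the 9 members (red); dashed lines mark 1.5-fold, and 6 members are named. The members lie inside the cloud of genes of their own level, and CLDN1 sits at low TPM, where the cloud is widest.

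Known regulators of claudin genes were read beside them. GRHL2, an activator of claudin genes in epithelia, had 7006 and 9836 counts (ratio 0.958, 0.929 to 0.987), though its TPM was 32.9 and 36.8, the opposite direction. ELF3 had 5437 and 7420 (0.931, 0.899 to 0.964), OVOL1 1276 and 1931 (1.03, 0.961 to 1.11) and OVOL2 91 and 141 (1.06, 0.806 to 1.39). The repressors were scarce: SNAI1 had 55 and 115 counts (1.43, 1.03 to 2.0) and ZEB1 31 and 69 (1.52, 0.980 to 2.40), which are 0.693 and 1.01 TPM for SNAI1 and 0.0918 and 0.154 TPM for ZEB1. SNAI2 had 24 and 15 counts (0.426, 0.208 to 0.847), TWIST1 0 and 17, and ZEB2 0 in both libraries, all under 50. With halved counts the intervals of SNAI1 (0.896 to 2.37), SNAI2 (0.133 to 1.1) and GRHL2 (0.917 to 1.0) held 1. That of ELF3 (0.886 to 0.979) stayed below 1. The ratio of TWIST1, at 0 counts in control, has no upper bound. Its lower bound was 2.81, or 1.16 with halved counts. With 1 library per group, the place of these regulators in the members' ratios was not tested.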

How the data were processed

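Values were taken from 1 control and 1 CIC knockdown library of T47D secondary mammospheres, prepared with a strand-specific kit for total RNA (NovaSeq reads), per the labels' protocols. The tools Trimmomatic, HISAT2 and StringTie, with hg38 and GRCh38 as builds, are listed in the submitters' processing notes; versions are not given in the sources used here. Per the file headers, the authors deposited read counts, FPKM and TPM per gene and transcript. The counts are estimated counts, as coverage was divided among transcripts, and were whole numbers as deposited. FPKM was scaled by the authors by transcript length and sequencing depth, and TPM, per the file headers, to a fixed sum per library (999861 and 999872). Columns marked KD were taken as the knockdown sample and C as control by their titles, and 0 columns were left unused.

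Library totals were scaled by TMM (edgeR 4.0.16, R 4.3.3). Each log2 ratio used a prior count of 2 and each ratio an exact Clopper-Pearson 95% interval given the summed count, which covers counting error only; PCR copies of a molecule are counted as if independent. The interval code was tested on simulated data. Calls were made among genes with at least 50 counts in 1 library, by the log2 ratio at a limit of 1.5-fold and, separately, by an interval off 1. With 1 library per group no p-value was computed. The members, lists and limits were chosen with earlier results of these data known. Named were all 9 members; of the other junction genes the 6 with the largest absolute log2 ratio and the 6 with the highest TPM; regulators with at least 50 counts; and CIC. A gene that this rule names is not reported here. Other genes named were chosen after their values were seen. Starts within 200 bases were joined. The sum of OCLN with OCLNP1, the start shares by counts or with assembled transcripts, the background at 1000 counts, and TPM and FPKM ratios without a pseudocount were chosen after seeing the data. Protein sequences were not used here. Alternatives changed the scaling (total counts, DESeq2 1.42.0 size factors, protein-coding totals), the unit (TPM or FPKM, with a pseudocount of 0.1), the gene table, the prior count, the count minimum, the fold and the transcripts used.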

Additional observations from a re-analysis of the deposited data

Results flagged for a closer look

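An assembled transcript that overlaps CLDN4 on the plus strand, in 2 exons from 73830863 to 73834982 of chromosome 7, was at 0 counts in control but at 65 where the label says CIC knockdown. It stands in the deposited list of assembled splice variants, which no comparison above uses for CLDN4. Its 65 counts compare with 31632 for the annotated CLDN4 gene in that library. With assembled transcripts added to the models, CLDN4 had 21045 and 31579 counts, a ratio of 1.03 (1.02 to 1.05). Without them the ratio was 1.03 (1.01 to 1.04), and the part of this transcript was not tested further.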

How the results depend on the processing

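No paired analysis was possible because each group has 1 library, and no library could be left out. The median log2 ratio of the members ran from 0.04 to 0.09 over 12 alternatives, beside 0.02 to 0.06 for all genes. Members at least 1.5-fold higher numbered 0 in TPM and in FPKM with a pseudocount of 0.1, with a prior count of 5, at 2-fold and with a minimum of 100 counts, 1 in TPM and in FPKM without a pseudocount (added after seeing the data), and 2 when only each gene's leading transcript was used. The other junction genes at least 1.5-fold higher numbered 0 in TPM and in FPKM with that pseudocount, with a prior count of 5, at 2-fold and with a minimum of 100 counts, 2 in TPM and 1 in FPKM without a pseudocount, 3 with the fold limit lowered as planned, 4 by leading transcript and 7 with no count minimum. Those at least 1.5-fold lower numbered 0 with total counts only, in TPM and in FPKM with or without a pseudocount, and at 2-fold, 4 with the lowered fold limit, 8 by leading transcript and 2 with no count minimum. The median share of TPM that moved between transcripts of a member, over the 6 with several, was 7.40%, against 7.27% in shares of counts and 6.51% with assembled transcripts. By leading transcript alone, the log2 ratio of TJP1 was -0.10 against 0.16 for the gene, that of TJP3 -0.17 against 0.05 and that of CLDN12 0.88 against 0.05. That of OCLN was -0.07 against -0.22, and that of CLDN7 -0.12 against -0.07. Fewer transcripts enter by construction. With assembled transcripts in the gene table, the log2 ratio of TJP1 was 0.23, and in TPM that of CLDN4 was 0.07 against 0.04. Intervals were not computed for TPM and FPKM, which carry no counts. CLDN1 at 43 and 96 counts is the member that depth limits most.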
